A study of Mus musculus with 4 samples.

Results

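Arteries and veins of the brain are lined by endothelial cells that differ in the genes they express, and 8 genes commonly used to tell these identities apart were followed here in newborn mouse brain endothelium with and without PD-1. They were taken by name as textbook markers of arterial endothelium (Efnb2, Gja4, Gja5, Bmx, Gkn3 and Mgp) or venous endothelium (Ephb4 and Nr2f2). Their values were not the rule of choice, but earlier results of these data were known when the genes were chosen. Of the 8 genes, 7 were listed among the 21578 genes of the deposited tables, and all 7 were among the 15909 genes with enough counts to be tested. Gkn3, a secreted protein gene used as a marker of brain arteries, was listed in none of the 4 tables. A gene is left out of a table when it holds no more than 4 counts in both libraries and none in at least one of them, so Gkn3 was not detectable at this depth in more than a few reads.

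Endothelial cells were sorted by flow cytometry with antibodies to CD31, an endothelial marker, and CD45, a leukocyte marker, from brains of C57BL/6 mice at postnatal day 0, and their RNA was sequenced. The control group was Pd1fl/fl, whose Pd1 alleles carry loxP sites but are intact, and the knockout group was Pd1cKO-Tie2, in which the same floxed alleles meet a Cre recombinase driven by the Tie2 promoter. Since Tie2-Cre also recombines alleles in blood cells, microglia or leukocytes of the knockout may lack Pd1 as well. Each genotype had 2 libraries, named here by genotype and number (Pd1fl/fl library 1 and 2, Pd1cKO-Tie2 library 1 and 2). The sources used here do not say whether a library came from 1 animal or from several, so p-values measure the spread between these libraries only.

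Levels are given as CPM, read counts scaled to an equal library total, after TMM scaling, which corrects for differences in library composition. The libraries held 13714374 to 24146115 counts, with Pd1cKO-Tie2 library 1 the deepest, and a count of 0 in a library allows up to 3 counts, or 0.126 to 0.22 CPM. Pdcd1, the gene that encodes PD-1, had 32 counts in Pd1fl/fl library 1 and 0 in each of the other 3 libraries. With a control at 0, it can check neither the labels of the other libraries nor the deletion in the Pd1cKO-Tie2 libraries. Which cells gave the 32 counts was not tested. Pan-endothelial markers were abundant in all 4 libraries, with Cldn5 at 4774 CPM or more. Pd1fl/fl library 1 stood apart in neutrophil markers, whose summed level was 914 CPM there and 1.32 to 55.5 CPM in the others, and each gene is therefore also given without that library. Pd1cKO-Tie2 library 1 held 6706 counts of Xist together with 1249 counts of the Y-linked Ddx3y, and Pd1cKO-Tie2 library 2 held 378 and 4630. Both Pd1fl/fl libraries held 0 counts of Xist, with 4802 and 5656 of Ddx3y. A difference in the sex of the animals therefore cannot be told apart from genotype here, and its part in the values was not tested.

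Arterial and venous identities are set before blood flow is fully established and are then maintained by it. Ephrin-B2, the product of Efnb2, sits on arterial endothelium and binds EphB4 on venous endothelium, and signals pass in both directions across the contact. Notch signalling favours the arterial programme, while the nuclear receptor COUP-TFII, encoded by Nr2f2, restrains Notch in veins. Connexin 37 (Gja4) and connexin 40 (Gja5) form gap junctions of arterial endothelium, Bmx is a cytoplasmic tyrosine kinase, and Mgp encodes matrix Gla protein, a secreted inhibitor of calcification and BMP signalling.

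The promoters of the ligand and receptor pair are shown because these genes mark the arterial and the venous side, and both hold more G and C than the median promoter. Of the 8 genes, 7 had an entry in the RefSeq promoter table (GRCm38.p6), which gives 250 bases before the transcription start and 50 after it. Capitals mark GGGCGG, the GC box, and CCAAT, each on either strand. The sequences run 5′ to 3′ on the strand of the gene.
Efnb2 (chr8:8661193-8661492, minus strand): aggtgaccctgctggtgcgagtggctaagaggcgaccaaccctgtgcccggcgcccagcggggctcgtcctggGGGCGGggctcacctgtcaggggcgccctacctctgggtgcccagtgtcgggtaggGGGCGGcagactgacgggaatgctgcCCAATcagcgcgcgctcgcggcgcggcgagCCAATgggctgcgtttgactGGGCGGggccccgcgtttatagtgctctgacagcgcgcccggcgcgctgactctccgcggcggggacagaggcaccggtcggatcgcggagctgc
Ephb4 (chr5:137349859-137350158, plus strand): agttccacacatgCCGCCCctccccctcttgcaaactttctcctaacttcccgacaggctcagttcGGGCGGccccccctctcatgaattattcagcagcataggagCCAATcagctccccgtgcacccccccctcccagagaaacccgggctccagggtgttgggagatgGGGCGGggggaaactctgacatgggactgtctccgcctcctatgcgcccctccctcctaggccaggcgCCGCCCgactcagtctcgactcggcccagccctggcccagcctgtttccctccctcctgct
The Efnb2 promoter was 72.3% G or C and held 35 CpG dinucleotides, and the Ephb4 promoter was 64.7% G or C with 14 CpG dinucleotides. The median of the 32851 promoters in the table was 52.7% with 7 CpG dinucleotides. GGGCGG occurred 3 times in the Efnb2 window and 4 times in the Ephb4 window, and 35.7% of all promoters held it at least once. CCAAT occurred 2 times in the Efnb2 window and 1 time in the Ephb4 window, against 37.4% of all promoters with at least 1. The lowest shares of G or C were those of Gkn3 (42.7%, 5 CpG dinucleotides) and Bmx (44.7%, 4), while Nr2f2 had the fewest CpG dinucleotides (2) at 49.7% G or C. The Gja4 promoter was 62% G or C and that of Gja5 55.7%. RNA sequencing does not measure promoters, and these letters are given as a description of the genes.

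The Pd1cKO-Tie2 genotype was not accompanied by a detectable change in any of the 7 arterial and venous genes listed. The study's criterion was a fold change of at least 2 with a p of at most 0.05, applied here to the unadjusted p. By it 0 of the 7 changed, against 4.02% of all tested genes, 1.41% higher and 2.61% lower in Pd1cKO-Tie2. With a share that low, a count of 0 does not set these 7 genes apart. The count was also 0 with DESeq2, with limma-voom and with each library left out in turn, and 0 of the 7 had an unadjusted p under 0.05 in edgeR's quasi-likelihood test. Of all tested genes 1016 had such a p, and 0 had an adjusted p under 0.05 with edgeR (114 with DESeq2). The adjusted p was 0.9998 for each of the 7 genes by edgeR's quasi-likelihood test with Benjamini-Hochberg adjustment. These are RNA levels of a whole sorted population, in which fewer cells of a type and less RNA per cell cannot be told apart. The fold changes of Efnb2, Gja4 and Ephb4 were above 1 and those of Gja5, Bmx, Mgp and Nr2f2 below it, so arterial genes fell on both sides, as did venous genes.

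**Figure D1:**
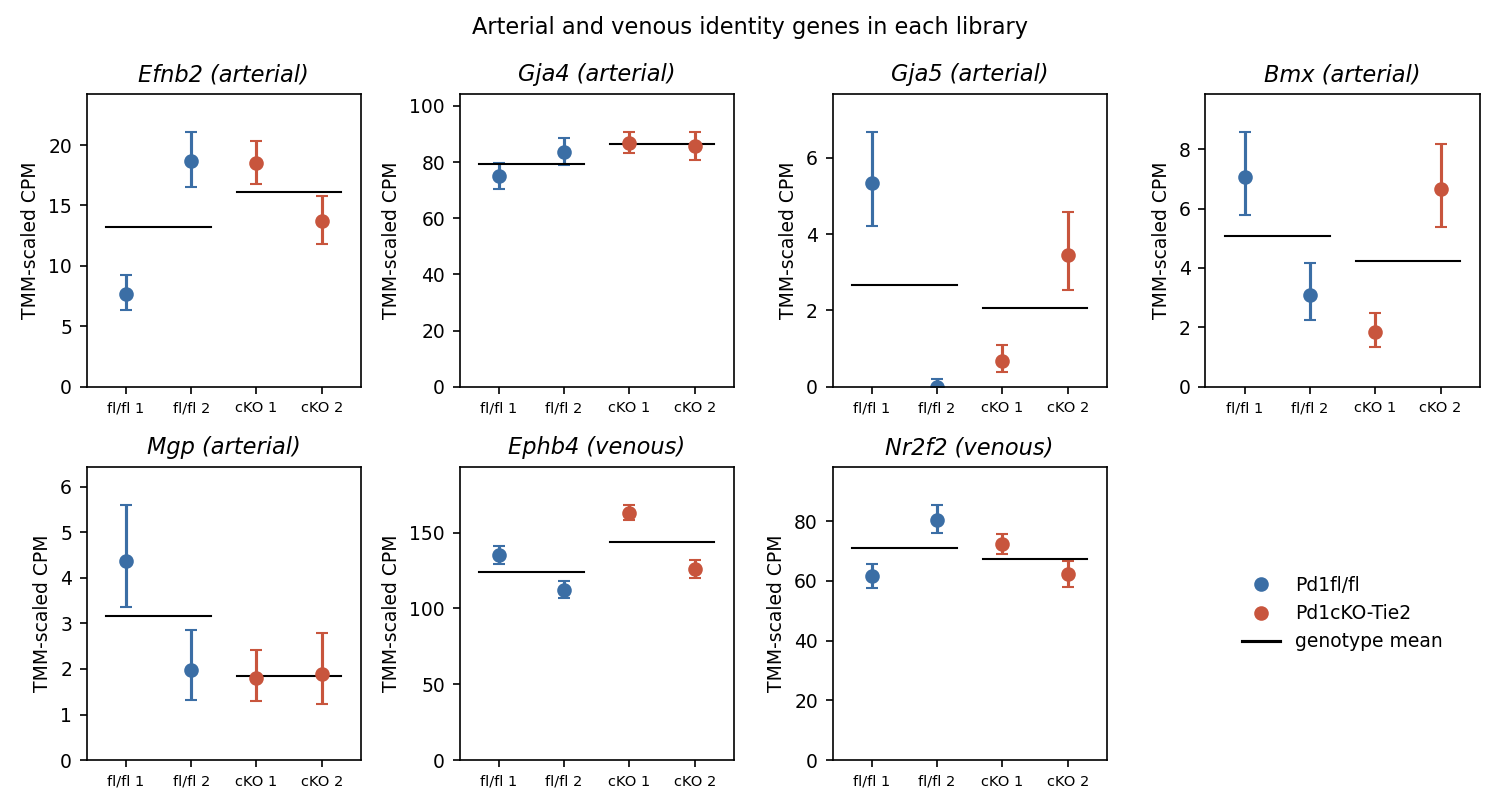
Level of each listed gene in each library in TMM-scaled CPM, with a separate vertical axis from 0 for each gene, points for the 4 libraries, vertical bars for the 95% Poisson counting interval (up to 3 counts for the count of 0) and black lines for the genotype means. Libraries of 1 genotype differ most for Efnb2, Gja5 and Bmx, and only Gja4 and Mgp have genotypes that do not overlap.

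Efnb2, the arterial ligand (ENSMUSG00000001300, chr8:8617434-8661242 of GRCm38, minus strand), had 7.7 CPM in Pd1fl/fl library 1 and 18.7 in Pd1fl/fl library 2. It had 18.5 CPM in Pd1cKO-Tie2 library 1 and 13.7 in Pd1cKO-Tie2 library 2. Pd1fl/fl library 1 was low and the other control was the highest of all, so both Pd1cKO-Tie2 libraries lay between the controls. The means were 13.2 ± 7.76 CPM in Pd1fl/fl and 16.1 ± 3.4 in Pd1cKO-Tie2 (SD, n = 2 each), a log2 fold change of 0.29 with a standard error of 0.55 (edgeR, adjusted p = 0.9998). The controls differed from each other 2.42-fold, more than the genotype means did. Without Pd1fl/fl library 1 the log2 fold change was -0.21, and without Pd1fl/fl library 2 it was 1.07.

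Ephb4, the venous receptor (ENSMUSG00000029710, chr5:137350109-137378669, plus strand), had 135 and 112 CPM in the Pd1fl/fl libraries and 163 and 126 CPM in the Pd1cKO-Tie2 libraries. Pd1cKO-Tie2 library 1 was the highest, while the other knockout library lay between the controls. The means were 124 ± 15.7 and 144 ± 26.1 CPM (SD, n = 2 each), and the log2 fold change was 0.22 with a standard error of 0.21 (edgeR, adjusted p = 0.9998). Of the 7 genes it had the smallest p and still ranked only 5229 of the 15909 tested genes. The 95% interval of its fold change ran from 0.812 to 1.68. Without Pd1fl/fl library 1 the log2 fold change was 0.36, and without Pd1cKO-Tie2 library 1 it was 0.036. Exons of Ephb4 share 33 bases with Zan on the opposite strand.

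The balance of ligand to receptor was compared within each library, where scaling between libraries plays no part. Counts were not divided by exon length, which is the same in every library. Ephb4 had 17.5 times as many counts as Efnb2 in Pd1fl/fl library 1 and 6.03 times as many in Pd1fl/fl library 2. It had 8.81 and 9.19 times as many in the Pd1cKO-Tie2 libraries. The knockout libraries were close to each other and lay between the controls, which stood well apart. The log2 ratio of Efnb2 to Ephb4 averaged -3.36 ± 1.09 in Pd1fl/fl and -3.17 ± 0.044 in Pd1cKO-Tie2 (SD, n = 2 each), a difference of 0.19 with p = 1 by a two-sided exact permutation test. With 2 libraries per genotype the smallest p this test can give is 0.333, and p was also 1 after adjustment over the 2 ratios tested.

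The other genes of this ligand and receptor family were fixed as a list of 7 (Efnb1, Efnb3, Ephb1, Ephb2, Ephb3, Ephb6 and Epha4). All 7 were tested and 0 passed the criterion, against 4.02% of all tested genes. None had an unadjusted p under 0.05 (edgeR), against 6.39% of all tested genes. With shares that low, counts of 0 do not set these 7 genes apart. Their median log2 fold change was 0.064 against -0.0038 for all tested genes. Ephb2, another receptor for ephrin-B ligands, had 4.09 and 5.21 CPM in Pd1fl/fl and 13.1 and 9.96 CPM in Pd1cKO-Tie2. Both knockout libraries were above both controls, with a log2 fold change of 1.31 and a standard error of 0.56 (edgeR, adjusted p = 0.814). Efnb3 likewise did not overlap, at 15.8 and 14.6 CPM against 22.5 and 19.6. These were 2 of the 7 genes, against 35.8% of all tested genes. Epha4, an EphA receptor that also binds ephrin-B ligands, had a log2 fold change of -0.19 with overlapping genotypes.

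Gja4, the connexin 37 gene (ENSMUSG00000050234, chr4:127311421-127314039, minus strand), had 74.9 and 83.6 CPM in Pd1fl/fl and 86.9 and 85.7 CPM in Pd1cKO-Tie2. Both knockout libraries were above both controls, and their distance from the higher control was smaller than the distance between the controls. With library totals in place of TMM scaling the genotypes overlapped. The means were 79.3 ± 6.15 and 86.3 ± 0.869 CPM (SD, n = 2 each), a log2 fold change of 0.12 with a standard error of 0.20 (edgeR, adjusted p = 0.9998). The 95% interval of the fold change ran from 0.775 to 1.53, the narrowest of the 7 genes. Without Pd1fl/fl library 1 the log2 fold change was 0.049.

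Gja5, the connexin 40 gene (ENSMUSG00000057123, chr3:96904693-97077416, plus strand), was the least even. It had 77 counts in Pd1fl/fl library 1, 0 in Pd1fl/fl library 2, 16 in Pd1cKO-Tie2 library 1 and 47 in Pd1cKO-Tie2 library 2. These are levels of 5.34, 0, 0.67 and 3.44 CPM, so the highest and the lowest value both came from controls. The count of 0 in Pd1fl/fl library 2 allows up to 0.211 CPM, and the counting interval of Pd1fl/fl library 1 began at 4.22 CPM, so the controls differed by more than counting error. The means were 2.67 ± 3.78 and 2.06 ± 1.96 CPM (SD, n = 2 each), and the 95% interval of the fold change ran from 0.0191 to 30.8 (edgeR, adjusted p = 0.9998). The log2 fold change was -0.38, and it changed sign with limma-voom (1.41) and without Pd1cKO-Tie2 library 1 (0.37). Without Pd1fl/fl library 1 the control had 0 counts, and the fitted value of 8.15 then depends on the small number of counts that edgeR adds.

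Reads of Gja5 are also the least securely assigned of the group. Of its 50-base exon stretches, 13.2% also occur in transcripts of Zfp697 and 2.02% in those of Gpr89, whose exons overlap those of Gja5 by 165 bases on the opposite strand. Gpr89 was even across the libraries, at 24.4, 21.1, 20.4 and 21.5 CPM in the order above. Zfp697 was highest at 16.8 CPM in Pd1fl/fl library 2, where Gja5 had no counts. The use of strand in counting is not given in the sources used here.

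Counts of Gja4 and Gja5 were therefore very unequal in each library, with no division by exon length (1685 bases for Gja4 and 5746 for Gja5). Gja4 had 14 times as many counts as Gja5 in Pd1fl/fl library 1, 130 times as many in Pd1cKO-Tie2 library 1 and 24.9 times as many in Pd1cKO-Tie2 library 2. With 0.5 counts added to each, the log2 ratio of Gja4 to Gja5 averaged 7.51 ± 5.24 in Pd1fl/fl and 5.80 ± 1.66 in Pd1cKO-Tie2 (SD, n = 2 each), a difference of -1.71 (two-sided exact permutation test, p = 1). The control mean rests on a library with 0 counts of Gja5, and the difference was 2.00 without that library (Pd1fl/fl library 2) and -5.41 without Pd1fl/fl library 1. Of 6 other vascular connexins in a fixed list, 3 were tested and 0 passed the criterion, against 4.02% of all tested genes. Gja1, the connexin 43 gene, had 150 and 224 CPM in Pd1fl/fl and 146 and 173 CPM in Pd1cKO-Tie2 and a log2 fold change of -0.23. Gjc1 had 46.2 and 37.3 CPM against 40.6 and 46.8, and Gjb2 was at 0 in 1 library of each genotype. The genotypes overlapped for all 3.

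Bmx, the tyrosine kinase gene (ENSMUSG00000031377, chrX:164192842-164258193, minus strand), had 7.08 and 3.1 CPM in Pd1fl/fl and 1.84 and 6.67 CPM in Pd1cKO-Tie2. Each genotype held 1 high and 1 low library, with the knockout pair 3.62-fold apart and the control pair 2.28-fold apart. The means were 5.09 ± 2.81 and 4.25 ± 3.41 CPM (SD, n = 2 each), a log2 fold change of -0.26 with a standard error of 0.98 (edgeR, adjusted p = 0.9998). Leaving out 1 library moved the log2 fold change between -1.46 and 0.45, and it was 0.45 without Pd1fl/fl library 1. Bmx lies on chromosome X, and its lowest library, Pd1cKO-Tie2 library 1, was also the one with the most Xist (281 CPM against 27.7 in the other knockout library and 0 in both controls) and the least Ddx3y (52.3 CPM against 333 to 398 in the others). The part of the sex of the animals in the Bmx values was not tested.

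Mgp, the matrix Gla protein gene (ENSMUSG00000030218, chr6:136872435-136875823, minus strand), had 4.37 and 1.97 CPM in Pd1fl/fl and 1.8 and 1.9 CPM in Pd1cKO-Tie2. Pd1fl/fl library 1 stood alone, and the other 3 libraries differed by less than their counting intervals. The genotypes did not overlap, but only because the second control was slightly above the knockouts. The means were 3.17 ± 1.7 and 1.85 ± 0.0741 CPM (SD, n = 2 each), a log2 fold change of -0.77 with a standard error of 1.08 (edgeR, adjusted p = 0.9998). Without Pd1fl/fl library 1 it was -0.088. Mgp is also made by fibroblasts and smooth muscle, cells that a sort for CD31 should remove, and 3 fibroblast and meningeal markers were present in Pd1fl/fl library 1 alone, with 152 counts of Col1a1, 39 of Lum and 41 of Aldh1a2 there and 0 of each elsewhere. Other markers of the list did not follow these 3. Col3a1 had 43.1 CPM in Pd1fl/fl library 1 and 57 in Pd1cKO-Tie2 library 1. Ogn had 0 counts in Pd1fl/fl library 1 and 49 in Pd1cKO-Tie2 library 2. The summed level of the 12 fibroblast and meningeal markers was 229 CPM in Pd1fl/fl library 1, 119 in the other control, and 160 and 178 in the knockouts. Mural cell markers also summed highest in Pd1fl/fl library 1, at 5754 CPM against 3758 to 3862 CPM in the others. Of their smooth muscle members, Acta2, Myh11 and Cnn1 had 0 counts in that library and Tagln had 5. The part of fibroblasts and mural cells in the Mgp value was not tested.

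Nr2f2, the venous nuclear receptor gene (ENSMUSG00000030551, chr7:70351944-70366735, minus strand), had 61.6 and 80.5 CPM in Pd1fl/fl and 72.2 and 62.3 CPM in Pd1cKO-Tie2. Both knockout libraries lay between the controls. The means were 71.1 ± 13.4 and 67.2 ± 7.06 CPM (SD, n = 2 each), a log2 fold change of -0.079 with a standard error of 0.24 (edgeR, adjusted p = 0.9998). The 95% interval of the fold change ran from 0.623 to 1.44. Without Pd1fl/fl library 1 the log2 fold change was -0.26, and without Pd1fl/fl library 2 it was 0.13. Exons of Nr2f2 share 643 bases with B130024G19Rik on the opposite strand, which holds 6.92% of the 50-base stretches of Nr2f2. B130024G19Rik had 6.1 and 7.26 CPM in Pd1fl/fl and 2.3 and 2.64 CPM in Pd1cKO-Tie2.

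**Figure D2:**
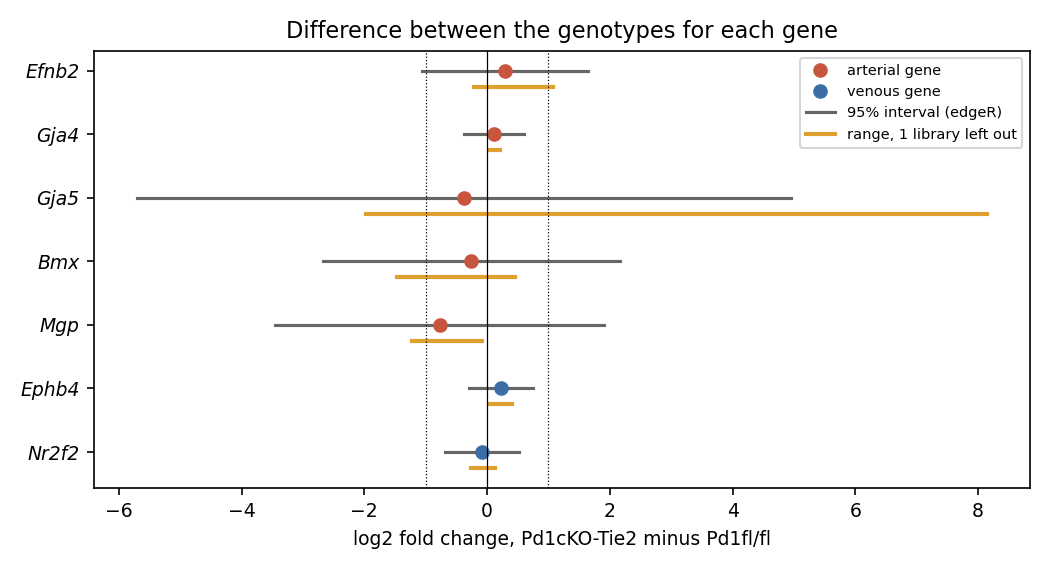
Log2 fold change of each listed gene (Pd1cKO-Tie2 minus Pd1fl/fl), with the grey bar for the 95% interval from edgeR, the orange bar for the range when 1 library is left out, and dotted lines at a fold change of 2 either way. All intervals cross 0, and those of Gja4, Ephb4 and Nr2f2 lie within the dotted lines.

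Genotypes that did not overlap were found for 2 of the 7 genes, Gja4 (higher) and Mgp (lower), against 35.8% of all tested genes (17.7% higher and 18.1% lower). For Efnb2, Gja5 and Nr2f2 both knockout libraries lay between the controls, as was so for 17.1% of all tested genes. The intervals leave unequal room for change. For Gja4, Ephb4 and Nr2f2 they exclude a 2-fold change in either direction, with bounds of 0.623 to 1.68 over the 3 genes. For Efnb2 the interval ran from 0.479 to 3.12, for Bmx from 0.156 to 4.47 and for Mgp from 0.091 to 3.76, so each of these intervals includes a 2-fold change in both directions. The interval of Gja5 was wider still.

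Divided by the length of their exons, the mean levels over the 4 libraries were ordered from Gja4 at 49.1 CPM per kilobase through Ephb4 at 28.9 and Nr2f2 at 8.02 to Efnb2 at 2.14, Mgp at 2.12, Bmx at 1.51 and Gja5 at 0.411. The ranges of the first 3 genes did not overlap with those of their neighbours, at 44.5 to 51.6, 24.2 to 35.1 and 7.14 to 9.34 CPM per kilobase. Efnb2 ranged from 1.12 to 2.72, Mgp from 1.52 to 3.68, Bmx from 0.596 to 2.29 and Gja5 from 0 to 0.93. Neighbours among these last 4 genes overlapped and are not ordered beyond their spread. Arterial genes thus held the first place and the last 4, with both venous genes between them.

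The genes with wide intervals were those at low levels. Efnb2, Bmx, Mgp and Gja5 were at mean levels of 1 to 20 CPM, where 7563 tested genes had a median 1.72-fold difference between the controls and 1.73-fold between the knockouts. Control libraries differed 2.42-fold for Efnb2, 2.28-fold for Bmx and 2.22-fold for Mgp, each above that median. Between the knockouts Efnb2 differed 1.35-fold and Mgp 1.06-fold, below it, and Bmx 3.62-fold and Gja5 5.14-fold, above it. Gja4, Ephb4 and Nr2f2 were at 50 to 200 CPM, where 3231 genes had medians of 1.19-fold and 1.18-fold. Control libraries differed 1.12-fold for Gja4, 1.2-fold for Ephb4 and 1.31-fold for Nr2f2.

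**Figure D3:**
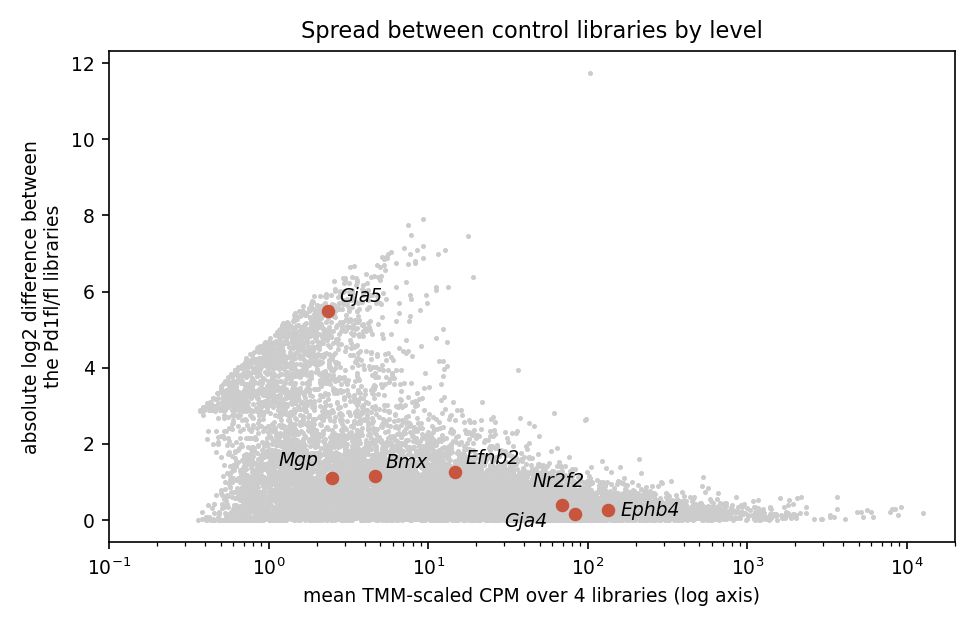
Absolute log2 difference between the Pd1fl/fl libraries against the mean TMM-scaled CPM over the 4 libraries (log axis), with grey points for tested genes and red points for the 7 listed arterial and venous genes. Gja5 lies at 5.50 and the other 6 between 0.16 and 1.26.

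Among 64 other arterial, venous, capillary and pan-endothelial genes, those most like each gene across the 4 libraries were found by the root mean square difference of centred log2 CPM. Closest to Efnb2 were Fbln5 (0.25) and Jag2 (0.27), both from the arterial list. Closest to Nr2f2 were the capillary gene Rgcc (0.063) and the pan-endothelial gene Sox7 (0.11). Gja4 was nearest to the venous gene Aplnr and to Sox7 (both 0.093), and Ephb4 to the venous gene Icam1 and the arterial gene Notch1 (both 0.12). Mgp was nearest to Tmem100 (0.25) and Notch1 (0.46), and Bmx to Jag1 (0.54) and Icam2 (0.66). Gja5 had no close neighbour, with Notch4 at 1.68 and Erg at 1.82. With 4 libraries that share their scaling these are descriptions of likeness only.

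No other arterial gene tested passed the criterion, which 4.02% of all tested genes passed, so a count of 0 does not set the list apart. Of 22 in a fixed list, 21 were tested and 0 passed the criterion in either direction, with a median log2 fold change of 0.085 that was -0.039 without Pd1fl/fl library 1. Unc5b, a netrin receptor, had 70.8 and 67.1 CPM in Pd1fl/fl and 93.2 and 116 CPM in Pd1cKO-Tie2 (edgeR, log2 fold change 0.60, adjusted p = 0.753). Sox17, an arterial transcription factor gene, had 309 and 265 CPM against 372 and 379 (edgeR, log2 fold change 0.39, adjusted p = 0.753). Vegfc had 11.8 and 9.51 CPM against 21.5 and 19.4 (edgeR, log2 fold change 0.94, adjusted p = 0.786). Unc5b and Sox17 alone had an unadjusted p under 0.05, which 6.39% of all tested genes had. Genotypes did not overlap for Unc5b, Sox17 and Vegfc, and for 8 of the 21 genes in all, against 35.8% of all tested genes. By direction, 6 of the 21 were higher in Pd1cKO-Tie2 and 2 lower, against 17.7% and 18.1% of all tested genes. The lowest value of the list, named after it was seen, was that of Sema3g, with 3.26 and 11.8 CPM against 2.97 and 0.806 (edgeR, log2 fold change -1.98, adjusted p = 0.912).

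Of the other venous genes, 1 passed the criterion in each direction, against 1.41% of all tested genes higher and 2.61% lower. Of 16 in the list, 15 were tested, and 9 had an unadjusted p under 0.05 by edgeR's quasi-likelihood test, against 6.39% of all tested genes. These 9 were also the genes whose genotypes did not overlap, against 35.8% of all tested genes. In Pd1cKO-Tie2, 6 of them were higher and 3 lower. Past the criterion were Il1r1, which was higher (log2 fold change 1.20), and Vcam1, which was lower (-1.20). Ctsc and Vcam1 had the smallest p-values of the list and were lower in Pd1cKO-Tie2, each with an adjusted p of 0.735 by edgeR. Ctsc had 304 and 355 CPM against 145 and 199 (log2 fold change -0.93), and Vcam1 had 44.6 and 55.2 against 21.2 and 22.2. Ctsc, a lysosomal protease gene, is also abundant in microglia. The median of the list was 0.25 (0.14 without Pd1fl/fl library 2), and none of its adjusted p-values was under 0.05 with edgeR. Capillary genes, 10 of 10 tested, had 0 past the criterion, against 4.02% of all tested genes. Their median was 0.28, which was 0.085 without Pd1fl/fl library 2 and 0.15 without Pd1cKO-Tie2 library 2. Of the 10, 4 had an unadjusted p under 0.05 (edgeR), against 6.39% of all tested genes. Without overlap, 5 of the 10 were higher in Pd1cKO-Tie2 and 2 lower, against 17.7% and 18.1% of all tested genes. The capillary genes with the smallest p were Slc7a5 (log2 fold change 0.37), Spock2 (0.32) and Ivns1abp (-0.65), whose genotypes did not overlap.

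**Figure D4:**
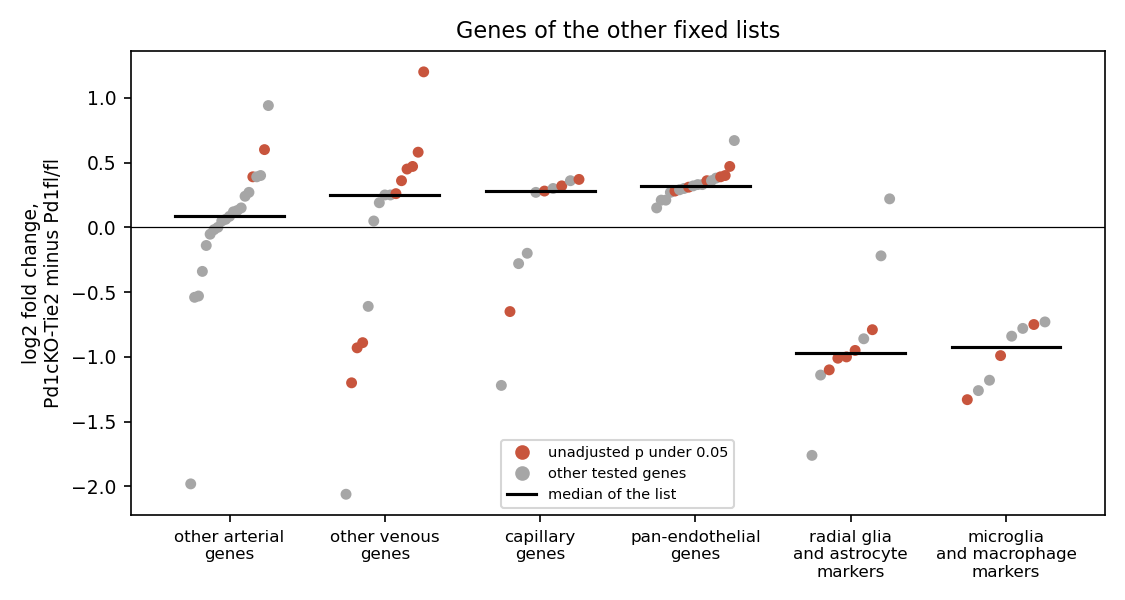
Log2 fold change (Pd1cKO-Tie2 minus Pd1fl/fl) of each tested gene of 6 fixed lists that hold none of the 8 genes, in rising order within a list, with the list median as a black line and red points for an unadjusted p under 0.05 (edgeR). All 18 pan-endothelial genes lie above 0, while the arterial and venous lists spread to both sides.

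All 18 pan-endothelial genes had a log2 fold change above 0, against 49.6% of all tested genes, with a median of 0.32. Of the 18, 0 passed the criterion, against 4.02% of all tested genes. Higher in Pd1cKO-Tie2 with genotypes that did not overlap were 16 of the 18, against 17.7% of all tested genes. Their summed level was 13981 and 12825 CPM in Pd1fl/fl and 16321 and 17451 CPM in Pd1cKO-Tie2. Cldn5, a tight junction gene, had 5516 and 4774 CPM against 6562 and 7008 (edgeR, log2 fold change 0.40, adjusted p = 0.735), with Flt1 at 0.39 and Cdh5 at 0.47. The summed level of 10 radial glia and astrocyte markers was 874 and 847 CPM in Pd1fl/fl against 553 and 408, with a median log2 fold change of -0.97 and 2 of the 10 past the criterion. The summed level of 8 microglia and macrophage markers was 1831 and 2272 CPM against 688 and 1587, with a median of -0.92 and 1 of the 8 past the criterion. In both of these lists the genes past the criterion were lower in Pd1cKO-Tie2, as were 2.61% of all tested genes. A log2 fold change above 0 was found for 1 of the 10 and 0 of the 8. Lower without overlap were 7 of the 10 and 6 of the 8, against 18.1% of all tested genes. An unadjusted p under 0.05 (edgeR) was found for 5 of the 10, 3 of the 8 and 6 of the 18 pan-endothelial genes, against 6.39% of all tested genes. Mural cell markers summed to 5754 CPM in Pd1fl/fl library 1 and to 3758 to 3862 CPM in the others, and their smooth muscle members were sparse. In the order of Pd1fl/fl library 1 and 2 and Pd1cKO-Tie2 library 1 and 2, Acta2 had 0, 11, 0 and 0 counts and Myh11 had 0, 6, 40 and 16. Tagln had 5, 2, 3 and 10 counts, and Cnn1 had 0, 3, 0 and 6.

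Relative to the summed pan-endothelial genes of the same library, an alternative chosen after seeing the data, the difference of mean log2 levels turned negative for Gja4 and Ephb4. Gja4, higher in both knockout libraries by CPM, was then lower in both, with a log2 difference of -0.21 in place of 0.12. The differences were -0.12 for Ephb4 (0.22 without this scale), -0.40 for Nr2f2, -0.73 for Bmx and -0.97 for Mgp. Efnb2 stood at 0.07 and Gja5 at 0.71. The mean of log values gave 1.05 for Gja5 without this scale, so its sign differed from the edgeR value of -0.38 already there. On this scale too the genotypes overlapped for 5 of the 7 genes, and Gja4 and Mgp were both lower in Pd1cKO-Tie2. This scale was applied to the 7 genes only, and the part of cell composition in the values of the other lists was not tested.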

How the data were processed

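Illumina sequencing of sorted P0 brain endothelium gave 2 libraries for each genotype, and 4 deposited tables pair every Pd1cKO-Tie2 library with every Pd1fl/fl library. The deposited counts are raw reads on each gene. The deposited CPM values are these counts as the authors scaled them to the library total, and served to recover that total. Fold change, p-value and adjusted p columns hold the authors' own comparison of each pair and were not used. The submitters' processing notes name Bowtie2 2.2.3, TopHat2 2.0.12, HTSeq 0.6.0 and the build mm9. Positions of genes in these tables are nevertheless those of GRCm38, with 90.0% equal to GENCODE M21. Genotypes came from the labels. The numbering of Pd1cKO-Tie2 library 2 in the tables differs from the labels, so that only its genotype is known.

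Joining the tables on the identifier gave 21578 genes, after 10 broken lines were skipped and 23 symbols converted to dates were put right. Unlisted genes were taken as 0. They hold at most 4 counts, and in all 0.00495% to 0.0107% of a library. Counts were tested with the quasi-likelihood test of edgeR 4.0.16 (R 4.3.3) after its filter on low counts and TMM scaling, with no covariate. A common biological coefficient of variation of 0.61 was estimated. Benjamini-Hochberg adjustment covered the 15909 tested genes. The criterion on fold change and unadjusted p is the one in the study's methods, which do not name a test. Poisson intervals of 95% and the limit of 3 counts behind a 0 cover counting error only. Ratios of 2 genes were compared by a two-sided exact permutation test (SciPy 1.17.1), and levels between genes were compared per kilobase of exon in GENCODE M21. The script was tested on simulated counts.

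The alternatives were DESeq2 1.42.0, limma-voom (limma 3.58.1), other filters and scalings, and leaving out each library in turn. The genes and lists were chosen with earlier results of these data known. Values are given for the 8 genes, for up to 3 genes with the smallest p in each list described, for Pdcd1, Xist and Ddx3y, and for the 2 genes most like each of the 7. Il1r1, Sema3g, Zfp697, Gpr89, B130024G19Rik, Zan, Col1a1, Col3a1, Lum, Aldh1a2, Ogn, Acta2, Myh11, Tagln and Cnn1 were named after their values were seen. The values of 1 gene of the venous list are not reported here.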

Additional observations from a re-analysis of the deposited data

How the results depend on the processing

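None of the 7 listed arterial and venous genes passed the criterion under any alternative run, and no paired analysis was possible because the genotypes share only 1 replicate number in the labels. In every test without 1 library of a genotype, the lone library was assumed to vary like the pair of the other genotype. Directions were not stable for 4 genes. With 1 library left out, the log2 fold change ran from -0.21 to 1.07 for Efnb2, from -1.98 to 8.15 for Gja5, from -1.46 to 0.45 for Bmx and from -0.26 to 0.13 for Nr2f2. It kept its sign for Gja4 (0.049 to 0.21), Mgp (-1.23 to -0.088) and Ephb4 (0.036 to 0.40). For Gja5, limma-voom gave 1.41 and the difference of mean log2 CPM, chosen after seeing the data, 1.05 in place of -0.38. Relative to the summed pan-endothelial genes, also chosen after seeing the data, that difference was 0.71 for Gja5, -0.21 for Gja4, -0.12 for Ephb4 and -0.40 for Nr2f2. The difference in the log2 ratio of Efnb2 to Ephb4 ran from -0.58 to 0.96 with 1 library left out, and that of Gja4 to Gja5 from -5.41 to 2.00. The second could not be computed without added counts, since Gja5 was at 0 in Pd1fl/fl library 2. With library totals only, the genotypes of Gja4 overlapped, and 1 of the 7 genes (Mgp) in place of 2 had genotypes that did not. The cause of these changes was not tested.

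Over all genes, those past the criterion and higher in Pd1cKO-Tie2 numbered 224, against 142 with at least 10 counts required in every library, 137 with limma-voom and 141 to 486 with 1 library left out (486 without Pd1fl/fl library 2 and 141 without Pd1cKO-Tie2 library 1). Those lower numbered 416, against 632 with DESeq2 and 391 to 574 with 1 library left out. Genes with an adjusted p under 0.05 numbered 0, against 114 with DESeq2 and 0 to 1 with 1 library left out. List medians with 1 library left out ran from -0.039 to 0.20 (other arterial genes), 0.14 to 0.34 (other venous genes), 0.085 to 0.33 (capillary genes) and 0.27 to 0.41 (pan-endothelial genes). The capillary median was 0.085 without Pd1fl/fl library 2 and 0.15 without Pd1cKO-Tie2 library 2. With library totals only, the venous median was 0.18 and the pan-endothelial median 0.26. Gja5, Bmx, Mgp and Efnb2 had at most 442 counts in any library, but the controls of each of them differed by more than counting error. The use of 2 libraries per genotype limits all 7 genes.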

Other observations

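Marker lists of other cell types gave the following values, beside 4.02% of all tested genes past the criterion. Of 12 neuronal markers 12 were tested, with a median log2 fold change of -0.11 and 0 past the criterion. Of 6 oligodendrocyte lineage markers 6 were tested, with a median of -0.025 and 0 past the criterion. Of 12 mural cell markers 9 were tested, with a median of -0.16 and 0 past the criterion, and Pdgfrb was at 159 and 106 CPM in Pd1fl/fl against 91.8 and 92.1 in Pd1cKO-Tie2 (edgeR, adjusted p = 0.859). Of 12 fibroblast and meningeal markers 7 were tested, with a median of -0.044 and 0 past the criterion. Of 4 lymphatic endothelial markers 3 were tested, with a median of -1.10 and 0 past the criterion. Lyve1, which marks lymphatic endothelium and some macrophages, was at 29.1 and 0 CPM in Pd1fl/fl against 5.73 and 2.05 in Pd1cKO-Tie2. Slc1a3 and Fabp7, markers of radial glia, had log2 fold changes of -0.79 and -1.01, with an adjusted p of 0.735 each (edgeR). Among 10 radial glia and astrocyte markers 2 passed the criterion, both lower, and among 8 microglia and macrophage markers 1 did, Trem2 (log2 fold change -1.33, edgeR, adjusted p = 0.738).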
